A study of Homo sapiens with 12 samples.

Results

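The regions described here are 7456 chromatin accessibility regions of the OSU-ERb-12 list that overlapped no region of the other deposited lists. All lay inside the bodies of protein-coding genes, away from the gene ends. They were selected from the 17931 regions of the OSU-ERb-12 list, out of 49496 regions in the 3 deposited lists. A region was chosen if it shared no base pair with any region of the enzalutamide list or of the combination list, overlapped the body of a RefSeq protein-coding gene (GRCh38.p14, the hg38 build of the files), and did not touch a window of 1 kb either side of any protein-coding gene end. The cells were 22Rv1, a human line established from prostate cancer, and all samples carried the genotype label WT. There were 12 samples in 4 groups of 3, described in the labels' protocols as biological triplicates: OSU-ERb-12 at 100 nM for 6 h, OSU-ERb-12 plus enzalutamide for 6 h (their doses are not in the labels of those samples), enzalutamide at 1 µM for 6 h, and vehicle. Oestrogen receptor beta is the target of OSU-ERb-12, and enzalutamide is an antiandrogen drug. The design text also names oestradiol treatments, and these were not analysed here.

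The OSU-ERb-12 list was recognised by the prefix WT, which it shares with the titles of the 3 OSU-ERb-12 samples, a prefix that the labels do not explain, so every value below rests on that match. The sources used here do not give the comparison with vehicle behind the lists. They state no direction of the difference. The names of all 3 lists carry the tag neg, which the sources do not define. It may stand for a direction, such as less accessible than in vehicle, or for a score. No direction was assigned from it, so a listed region may be more or less accessible than in vehicle. The lists hold positions without values per sample, the sequencing depth is unknown, and the score column is 0 in every row. No replicate error and no test between treatments can be had from them. The intervals given below are exact 95% intervals that cover the counting of regions only; the regions come from the same 3 samples and are not replicates of a treatment. The cell line label could not be set against marker genes, since no expression was measured in these files.

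ATAC-seq uses a transposase to cut DNA that is not wrapped in nucleosomes, and its nucleosome-free fraction marks short stretches where transcription factors and the transcription machinery can sit. Enhancers often lie inside genes, many of them in long introns, and may act on the host gene or on a distant promoter. A gene body can also hold further transcription starts, which give shorter transcripts of the host or separate noncoding RNAs. Oestrogen receptor beta is a ligand-activated nuclear receptor that is found in prostate epithelium and, like its relatives, binds DNA at hormone response elements that frequently lie far from gene starts.

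Few of the regions touched an annotated transcription start inside their host gene, and those that did are the ones whose DNA could be read from a reference table. RefSeq windows from 250 bases before to 50 bases after a start numbered 7869 inside the gene bodies, away from gene ends. OSU-ERb-12-only regions touched 58 of these windows through 54 regions, which is 0.724% of the regions (0.545 to 0.944%). Of the symbols with a touched start, 32 were coding and 22 were long noncoding RNA (lncRNA) genes, and 24 of the overlaps spanned 150 bp or more. Some windows with larger overlaps than those printed are not shown. The 8 windows below belong to, or lie antisense to, genes with a known role in signalling or transcription. A region covers 104 to 264 bp of each. Each is printed 5′ to 3′ on the strand of its gene, in lower case, with the bases that the region covers in capitals; all come from RefSeq, GRCh38.p14. PPARGC1B encodes a coactivator of nuclear receptors, and its window lies at chr5:149771690-149771989 on the plus strand, with 161 bp in the region. KLF7 encodes a Krüppel-like zinc finger factor, and its window lies at chr2:207166807-207167106 on the minus strand, with 194 bp in the region. NPAS3 encodes a basic helix-loop-helix PAS factor, and its window lies at chr14:32938629-32938928 on the plus strand, with 250 bp in the region. DAB2IP encodes a Ras GTPase-activating protein, and its window lies at chr9:121651384-121651683 on the plus strand, with 167 bp in the region. EPHA6 encodes an ephrin receptor, and its window lies at chr3:97439357-97439656 on the plus strand, with 156 bp in the region. UBE2D3 encodes a ubiquitin-conjugating enzyme, and its window lies at chr4:102825813-102826112 on the minus strand, with 188 bp in the region. AXL encodes a receptor tyrosine kinase, and its window lies at chr19:41226505-41226804 on the plus strand, with 104 bp in the region. SIAH2-AS1 is a noncoding gene antisense to SIAH2, an oestrogen-responsive ubiquitin ligase gene, and its window lies at chr3:150761687-150761986 on the plus strand, with 264 bp in the region.
PPARGC1B: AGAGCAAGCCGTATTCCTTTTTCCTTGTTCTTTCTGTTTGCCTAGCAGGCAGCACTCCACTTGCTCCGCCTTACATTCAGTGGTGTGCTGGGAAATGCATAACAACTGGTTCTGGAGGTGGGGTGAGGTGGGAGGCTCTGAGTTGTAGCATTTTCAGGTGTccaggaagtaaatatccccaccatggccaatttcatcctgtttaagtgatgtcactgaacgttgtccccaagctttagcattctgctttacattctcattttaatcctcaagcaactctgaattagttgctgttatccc
KLF7: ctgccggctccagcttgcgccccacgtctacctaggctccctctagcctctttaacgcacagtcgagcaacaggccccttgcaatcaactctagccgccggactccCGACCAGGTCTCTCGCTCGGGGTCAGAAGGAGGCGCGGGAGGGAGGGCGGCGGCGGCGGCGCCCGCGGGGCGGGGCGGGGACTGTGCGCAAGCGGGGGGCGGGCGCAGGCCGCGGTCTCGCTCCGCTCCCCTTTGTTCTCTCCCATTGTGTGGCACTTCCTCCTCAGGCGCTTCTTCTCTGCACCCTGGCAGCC
NPAS3: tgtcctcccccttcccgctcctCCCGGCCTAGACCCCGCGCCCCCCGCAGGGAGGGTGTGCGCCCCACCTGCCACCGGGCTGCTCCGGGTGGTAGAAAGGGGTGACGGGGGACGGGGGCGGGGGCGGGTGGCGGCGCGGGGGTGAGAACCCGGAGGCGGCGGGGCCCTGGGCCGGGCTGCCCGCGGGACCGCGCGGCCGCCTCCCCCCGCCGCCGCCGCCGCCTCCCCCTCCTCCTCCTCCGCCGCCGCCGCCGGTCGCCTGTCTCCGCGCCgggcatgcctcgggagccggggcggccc
DAB2IP: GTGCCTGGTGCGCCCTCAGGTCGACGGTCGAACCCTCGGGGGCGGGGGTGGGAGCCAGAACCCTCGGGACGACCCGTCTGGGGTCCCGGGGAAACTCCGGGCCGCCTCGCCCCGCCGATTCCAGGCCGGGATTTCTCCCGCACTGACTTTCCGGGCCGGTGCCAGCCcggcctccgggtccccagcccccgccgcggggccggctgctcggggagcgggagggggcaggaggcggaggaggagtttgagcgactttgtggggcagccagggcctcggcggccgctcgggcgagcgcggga
EPHA6: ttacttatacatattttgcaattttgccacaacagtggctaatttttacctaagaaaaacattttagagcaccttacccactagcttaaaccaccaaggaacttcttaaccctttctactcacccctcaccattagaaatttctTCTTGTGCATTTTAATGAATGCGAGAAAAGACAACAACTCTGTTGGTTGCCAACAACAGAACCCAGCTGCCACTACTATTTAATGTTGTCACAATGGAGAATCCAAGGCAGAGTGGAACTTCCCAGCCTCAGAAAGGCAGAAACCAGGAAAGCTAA
UBE2D3: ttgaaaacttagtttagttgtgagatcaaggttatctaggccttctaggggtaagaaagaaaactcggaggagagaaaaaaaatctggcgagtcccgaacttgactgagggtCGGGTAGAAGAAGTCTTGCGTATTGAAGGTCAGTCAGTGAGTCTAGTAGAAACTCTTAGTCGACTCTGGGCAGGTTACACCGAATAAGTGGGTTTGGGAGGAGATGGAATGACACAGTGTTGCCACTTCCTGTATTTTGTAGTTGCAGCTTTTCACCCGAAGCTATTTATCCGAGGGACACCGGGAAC
AXL: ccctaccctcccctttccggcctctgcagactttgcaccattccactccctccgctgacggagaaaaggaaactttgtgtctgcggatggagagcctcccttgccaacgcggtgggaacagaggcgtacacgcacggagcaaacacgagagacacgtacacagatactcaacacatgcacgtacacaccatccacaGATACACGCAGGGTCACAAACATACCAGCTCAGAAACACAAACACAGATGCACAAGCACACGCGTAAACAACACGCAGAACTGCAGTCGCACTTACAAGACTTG
SIAH2-AS1: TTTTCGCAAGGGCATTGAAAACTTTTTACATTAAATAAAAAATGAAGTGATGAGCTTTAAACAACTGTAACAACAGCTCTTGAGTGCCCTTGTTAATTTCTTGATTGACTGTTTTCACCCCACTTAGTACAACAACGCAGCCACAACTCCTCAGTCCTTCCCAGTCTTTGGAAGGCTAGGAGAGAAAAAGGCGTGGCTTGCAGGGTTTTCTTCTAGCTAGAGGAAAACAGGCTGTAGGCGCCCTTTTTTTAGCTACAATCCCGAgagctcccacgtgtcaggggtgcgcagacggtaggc

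These windows differ widely in base composition. The NPAS3 window had 42 CpG dinucleotides and a GC content of 83.0%, and the SIAH2-AS1 window had 8 CpG and 45.3% GC. Over the 58 touched windows the median was 9.5 CpG and 56.5% GC, which lay between the 6 CpG and 53.3% of all 7869 windows inside gene bodies and the 14 CpG and 58.7% of all 35116 windows in the table. Windows touched by enzalutamide-only regions were richer, with a median of 21 CpG and 62.3% GC over 365 windows. CpG-rich starts are typical of broadly used promoters.

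Short motifs were searched in the windows on both strands, and a match is a description of letters, not a bound site. Matches were counted over the whole window, including bases that the region does not cover. For AGGTCA and for AGAACA, most windows with a match had it only outside the region, as LHX3 did for AGGTCA. The oestrogen receptor hexamer AGGTCA was in 9 of the 58 windows (15.5%, 7.35 to 27.4%), and UBE2D3 carried it at bases 139 to 144 of the window, inside the region. Of all windows inside gene bodies 15.2% held it, and 13.8% of all windows in the table did. The androgen response hexamer AGAACA was in 14 windows (24.1%, 13.9 to 37.2%), against 18.2% inside gene bodies and 14.8% in the table. PPARGC1B held its complement TGTTCT at bases 26 to 31 and KLF7 at bases 240 to 245, in both cases inside the region. The full palindromic oestrogen and androgen response elements, made of a hexamer and its reverse complement 3 bases apart, were in 0 of the 58 windows, which allows a share of up to 6.16% (upper bound of the interval), and in 0.0127% and 0% of the windows inside gene bodies. The GC box GGGCGG was in 18 windows (31.0%, 19.5 to 44.5%), near the 31.3% inside gene bodies and below the 45.0% of the whole table. It was in 213 of the 365 windows touched by enzalutamide-only regions (58.4%, 53.1 to 63.5%).

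The shares of the other motifs could not be told apart from those of the windows inside gene bodies at this number of windows. The forkhead motif TGTTTAC was in 5 windows (8.62%, 2.86 to 19.0%), against 4.12% of windows inside gene bodies and 3.42% in the table, and AXL held its complement GTAAACA at bases 260 to 266. The AP-1 motif TGANTCA was in 7 (12.1%), against 9.70% and 7.71%. The ETS motif CCGGAA was also in 7 (12.1%), against 10.3% and 17.2%, and DAB2IP held its complement at bases 149 to 154. The E-box CAGCTG was in 12 (20.7%), against 19.5% and 17.9%, with EPHA6 carrying it at bases 208 to 213. The motifs were searched separately, so matches of different motifs may overlap, and the hexamers lie inside the full elements. With 58 windows, the intervals of all these shares contain the value of the windows inside gene bodies. Some windows overlap, and the overlapping HHIPL1 windows share their AGGTCA match. The intervals count such windows as separate.

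The share of regions that touched an inner start was lower for OSU-ERb-12-only than for enzalutamide-only regions inside gene bodies. It was 0.724% (0.545 to 0.944%) for OSU-ERb-12-only regions, 1.03% (0.646 to 1.55%) for combination-only regions and 3.57% (3.19 to 3.97%) for enzalutamide-only regions. The windows make up 0.183% of the gene body sequence searched. That value is a share of bases, so it is not on the scale of the shares of regions that touch a window. Enzalutamide-only regions are wider, and a wider region touches a window more easily. Among regions of exactly 200 bp the shares were 0.735% (37 of 5034), 1.16% (18 of 1548) and 3.24% (142 of 4379, 2.74 to 3.81%), in the same order of lists. The OSU-ERb-12 and enzalutamide intervals did not overlap at either width rule. No test across samples stands behind this difference, because the lists carry no values per sample.

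MicroRNA hairpins were touched in 2 host genes, out of 859 annotated hairpins inside the gene bodies. Both mature miRNAs lay entirely within a 200 bp region, and their sequences are given 5′ to 3′ with the seed, bases 2 to 8, in capitals. MIR5092 lies in SLC12A8, a solute carrier gene, and the mature miRNA at chr3:125151475-125151496 on the minus strand. MIR4317 lies in L3MBTL4, which encodes a malignant brain tumour repeat protein, and the mature miRNA at chr18:6374399-6374415 on the minus strand. The seeds differ. Enzalutamide-only regions touched 5 hairpins inside gene bodies and combination-only regions 1.
hsa-miR-5092: aAUCCACGcugagcuuggcauc
hsa-miR-4317: aCAUUGCCagggaguuu

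The shares of OSU-ERb-12-only regions inside and outside genes were both larger than those of enzalutamide-only regions, and the share at gene ends was smaller. Of the 15837 regions that only the OSU-ERb-12 list held, 47.1% (46.3 to 47.9%) were the gene body regions described here, 46.9% lay outside protein-coding genes and 5.99% touched a gene end. Of 4698 combination-only regions 45.5% (44.1 to 46.9%) were inside gene bodies and 517 touched a gene end (10.1 to 11.9%). Of 23003 enzalutamide-only regions 39.1% (38.5 to 39.8%) were inside gene bodies, 39.4% lay outside protein-coding genes and 21.5% touched a gene end. Away from gene ends, 7456 OSU-ERb-12-only regions lay inside and 7433 outside genes. For the combination these counts were 2138 and 2043, and for enzalutamide 9000 and 9061. The larger OSU-ERb-12-only share inside bodies thus goes with the smaller share at gene ends. Some OSU-ERb-12 regions inside gene bodies were not counted because another list shared them: 846 of 8302 (10.2%), of which 29 overlapped the other list by 50 bp or less.

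The 1 kb limit and the overlap rule set the edges of the selection, and members lay close to both. The regions just inside the 1 kb limit were in RFTN1 (1006 bp from a gene end), HOXA3 (1007 bp), PAQR4 and PAQR9 (1008 bp each), and those just outside included USP6NL and VSTM2L (1000 bp each). The median distance of a region to the nearest end of a protein-coding gene was 25387 bp. The gap to the nearest region of another list was 0 to 1642250 bp with a median of 21725 bp; 17 regions (0.228%) had another list's region within 50 bp, 265 (3.55%) within 1 kb and 2133 (28.6%) within 10 kb. Most of these regions therefore had no listed neighbour of another treatment in their immediate surroundings.

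The regions were short. Of the 7456 regions, 5034 were 200 bp wide, the shortest width in the lists (67.5%, 66.4 to 68.6%), 1397 were 250 bp, 637 were 300 bp, 292 were 350 bp and 96 were 400 bp or more (1.29%, 1.04 to 1.57%). Together they covered 1694 kb. The share of 200 bp regions was 66.5% (65.4 to 67.5%) among OSU-ERb-12-only regions outside protein-coding genes, 72.4% (70.5 to 74.3%) among combination-only regions inside gene bodies, and 48.7% (47.6 to 49.7%) among enzalutamide-only regions inside gene bodies. Widths of 400 bp or more made up 9.98% (9.37 to 10.6%) of the enzalutamide-only gene body regions. At gene ends the share of 400 bp or more was 1.79% (1.05 to 2.86%) for OSU-ERb-12-only, 2.51% (1.35 to 4.26%) for combination-only and 16.1% (15.1 to 17.2%) for enzalutamide-only regions. OSU-ERb-12-only regions thus had similar widths inside genes, outside genes and at gene ends, while enzalutamide-only regions were wider at gene ends than in bodies.

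The widest OSU-ERb-12-only gene body region spanned 750 bp in EML3, which encodes a microtubule-associated protein, at chr11:62610551-62611300. Regions of 700 bp lay in NTMT2, a protein N-terminal methyltransferase gene (chr1:170166651-170167350), SLC24A4, a sodium, calcium and potassium exchanger gene (chr14:92362401-92363100), CIC, a transcriptional repressor gene (chr19:42282801-42283500), and RIMS2, a synaptic vesicle release gene. A region of 650 bp at chr1:162670901-162671550 lay in DDR2, a receptor tyrosine kinase gene for collagen. The enzalutamide-only gene body regions reached 1700 bp.

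Within the host gene the OSU-ERb-12-only regions were spread evenly from start to end. Strand was known for 15842 genes, which held 5911 of the regions in 6055 region and gene pairs, and 49.9% of the pairs (48.6 to 51.1%) lay nearer to the start than to the end of the body. The share was 46.5% (44.2 to 48.9%) for combination-only regions and 53.8% (52.6 to 54.9%) for enzalutamide-only regions. Each 10% slice of the body from start to end held between 9.68% and 10.5% of the OSU-ERb-12 pairs. For enzalutamide the first slice held 12.2% (11.5 to 13.0%) and the last 9.05%.

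The OSU-ERb-12 density was higher near the gene start than deep in the body, by a smaller factor than the enzalutamide density. From 1 to 5 kb after the start there were 464 OSU-ERb-12-only region and gene pairs, or 8.31 per Mb of body at that distance (7.60 to 9.07). More than 200 kb from the start there were 4.80 per Mb (4.56 to 5.04). The same bins held 16.7 (15.7 to 17.7) and 5.21 per Mb for enzalutamide, and 2.51 and 1.07 per Mb for the combination. Towards the 3′ end the OSU-ERb-12 density from 1 to 5 kb was 7.61 per Mb, within the interval of the 5′ side, whereas enzalutamide had 10.5 per Mb there. Long genes fill the far bins, so these densities also follow gene length.

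**Figure D1:**
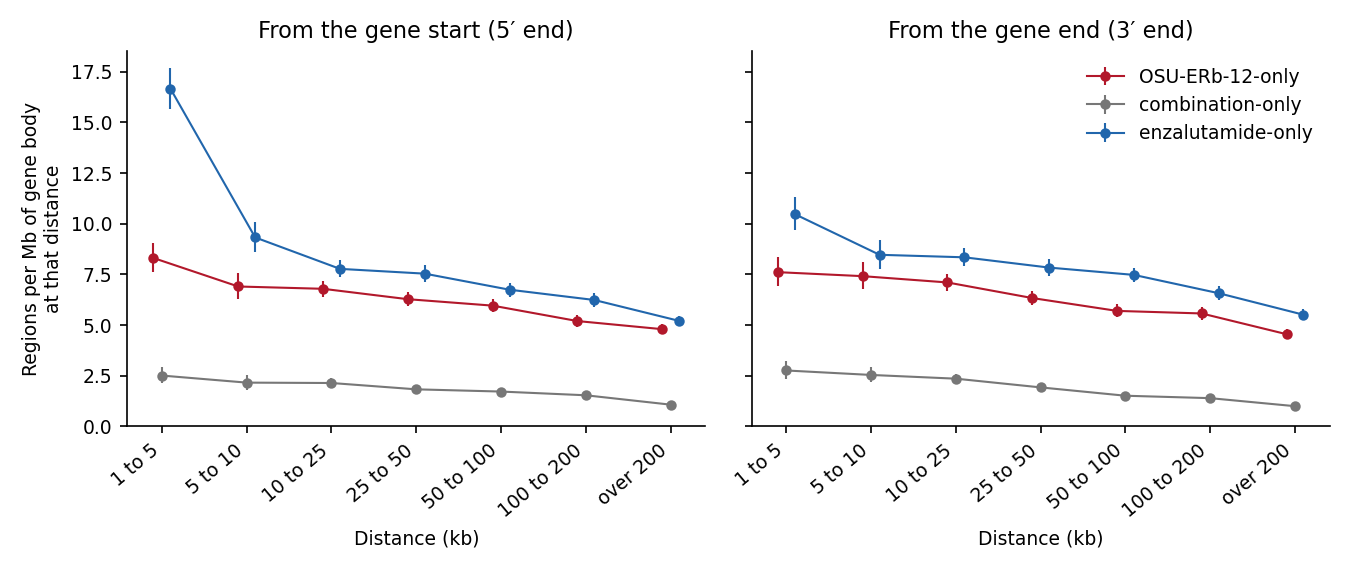
Regions per Mb of gene body (vertical axis) in bins of distance in kb from the gene start (left panel) and from the gene end (right panel). Shown are OSU-ERb-12-only, combination-only and enzalutamide-only regions in genes with a strand, and a region in overlapping genes is counted for each of them. Points are densities and bars exact 95% Clopper-Pearson intervals over regions, scaled to Mb. From 1 to 5 kb after the start the OSU-ERb-12 point is at 8.31 per Mb and the enzalutamide point at 16.7 per Mb, and beyond 200 kb they are at 4.80 and 5.21 per Mb.

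The plot of density by distance shows how far this difference is bound to the starts. From 5 kb onwards the enzalutamide line stays above the OSU-ERb-12 line by a smaller margin, with 6.90 and 9.32 per Mb at 5 to 10 kb and 5.96 and 6.74 per Mb at 50 to 100 kb. The combination line is lower throughout, and that list is the shortest.

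For OSU-ERb-12-only and enzalutamide-only regions, the share in noncoding genes inside the same bodies was slightly above the share of sequence that those genes hold. OSU-ERb-12-only regions overlapped an annotated lncRNA gene in 591 cases (7.93%, 7.32 to 8.56%), combination-only regions in 7.11% (6.06 to 8.28%) and enzalutamide-only regions in 8.40% (7.83 to 8.99%). The lncRNA genes cover 6.82% of the gene body sequence searched, a share of bases that lies within the combination interval.

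At least 1 OSU-ERb-12-only region lay in the body of 4286 of 20037 protein-coding genes (21.4%). An enzalutamide-only region lay in 5144 (25.7%) and a combination-only region in 1754 (8.75%); the 3 lists are taken to share the vehicle samples, so these counts are set side by side and not compared gene by gene. Of the 4286 genes, 2702 held 1 region, 871 held 2, 490 held 3 or 4, 191 held 5 to 9 and 32 held 10 or more. Genes with a region had a median length of 83.5 kb, and genes without one 17.2 kb. There were 178 regions that lay in overlapping genes and were counted for each of them.

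Gene length goes with the number of regions in a gene. In the longest 10% of genes, from 152.3 to 2474 kb, 63.9% of genes (1280) held an OSU-ERb-12-only region. These genes held 3597 of the regions (48.2%, 47.1 to 49.4%) and 55.9% of the gene body sequence, so their density of 5.26 per Mb was below the 6.10 per Mb of all gene bodies. In genes of 3.069 to 6.427 kb the density was 10.5 per Mb for OSU-ERb-12 and 20.0 per Mb for enzalutamide, and in genes of 6.43 to 10.82 kb it was 9.13 and 13.97 per Mb. The longest genes held 5.26 per Mb for OSU-ERb-12, 1.31 per Mb for the combination and 6.04 per Mb for enzalutamide. Short genes have little body left outside the 1 kb windows, so their densities rest on 54 and 117 OSU-ERb-12-only regions.

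**Figure D2:**
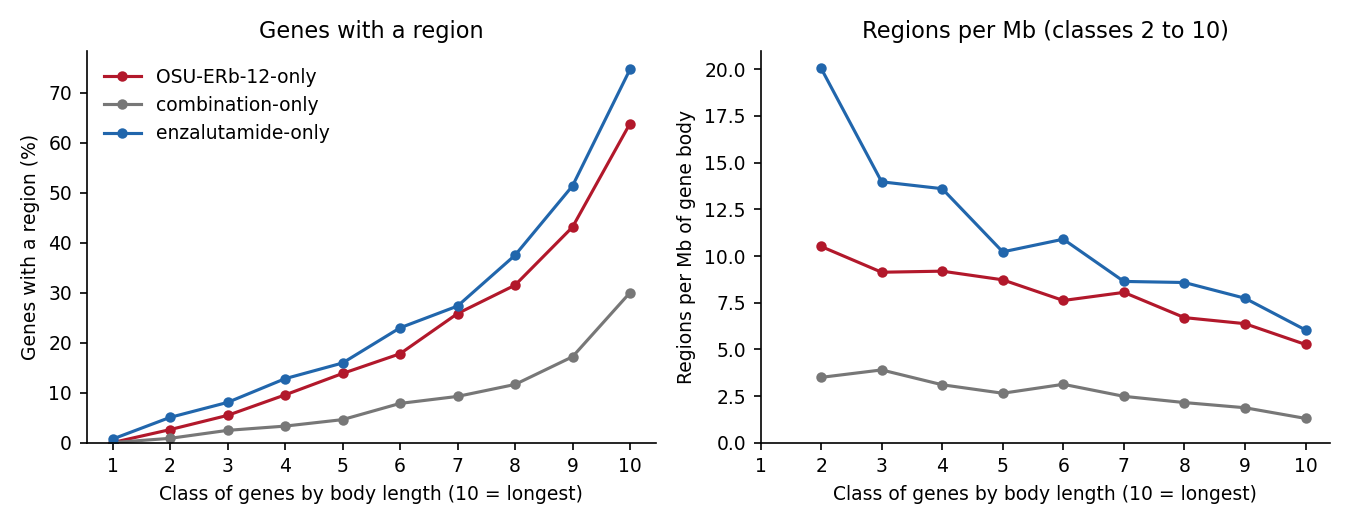
Left, percentage of protein-coding genes with a region inside the body; right, regions per Mb of gene body, both in 10 equal classes of genes ordered by body length (10 = longest), for OSU-ERb-12-only, combination-only and enzalutamide-only regions. The share of genes with an OSU-ERb-12-only region reaches 63.9% in class 10 while the density there is 5.26 per Mb, against 10.5 per Mb in class 2; class 1 is left out on the right because 1 OSU-ERb-12-only region lies there.

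The plot by gene length gives the measure against which the gene groups below have to be read: the share of genes with a region climbs with length in all 3 lists, while the density per Mb goes down. A group of long genes can therefore exceed the 21.4% of all genes with a density below the average.

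The regions were unevenly spread over the chromosomes. Chromosome 3 had the highest density with 970 regions and 10.8 per Mb of gene body, followed by chromosome 12 with 9.72, chromosome 1 with 9.59 (1036 regions), chromosome 8 with 9.28, chromosome 19 with 9.17 and chromosome 7 with 9.02 per Mb. Densities were low on chromosome 2 (3.27 per Mb), chromosome 4 (3.04), chromosome 6 (2.91) and chromosome X (0.468 per Mb, 23 regions). Enzalutamide-only regions had 8.74 per Mb on chromosome 3, 5.66 on chromosome 2 and 3.79 on chromosome X.

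Chromosomes 1, 3, 7, 8 and 12 were grouped after their densities were seen, so the share they hold is a description and the contrast between lists on them follows in part from the choice. They are the chromosomes with the highest ratio of OSU-ERb-12-only to enzalutamide-only regions, 0.988 to 1.23; chromosome 19 is denser than chromosome 7 in OSU-ERb-12-only regions but has a ratio of 0.862. They held 3777 of the OSU-ERb-12-only gene body regions (50.7%, 49.5 to 51.8%), 42.9% (40.8 to 45.0%) of the combination-only and 38.9% (37.9 to 39.9%) of the enzalutamide-only ones, with 31.8% of the gene body sequence. The OSU-ERb-12 density was 9.74 per Mb on these chromosomes and 4.67 on the other autosomes, against 2.36 and 1.55 for the combination and 9.02 and 6.79 for enzalutamide. On chromosome 1 the density was 14.7 per Mb (719 regions) after position 143545601 and 5.36 per Mb (317 regions) before position 121586950. Enzalutamide-only regions had 12.3 and 7.60 per Mb on the same arms. The densest 5 Mb of gene-rich sequence lay at 155000001 to 160000000 on chromosome 1, with 49 OSU-ERb-12-only regions or 21.1 per Mb of gene body, 10 combination-only and 40 enzalutamide-only regions. Copy number of the cell line was not measured in these files, and its part in these densities was not tested.

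**Figure D3:**
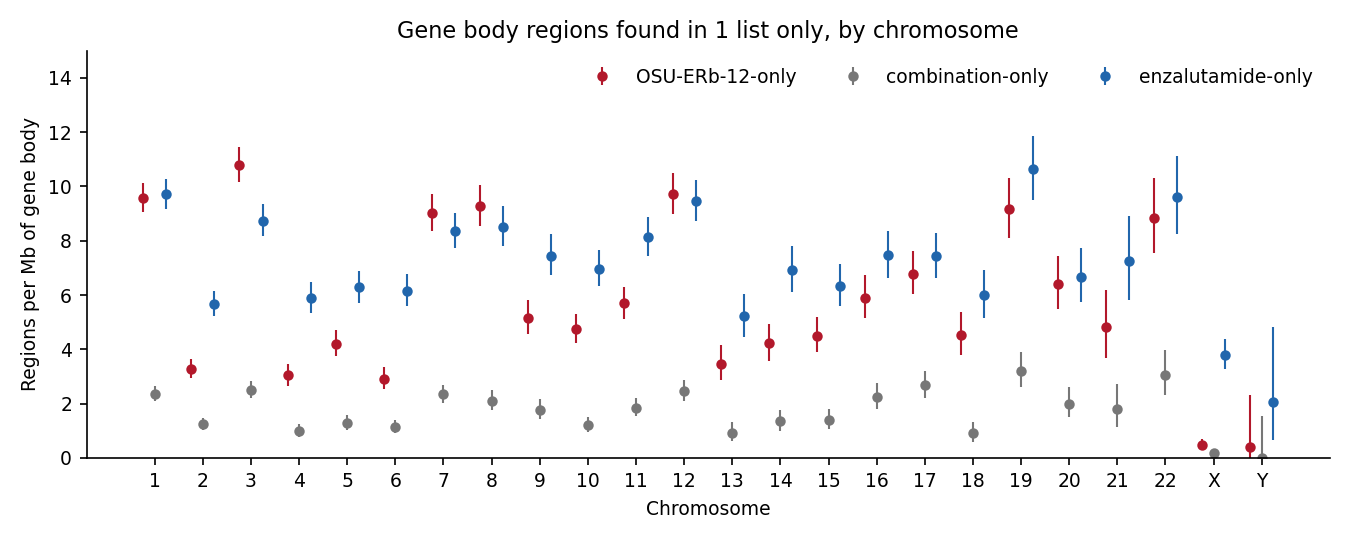
Regions per Mb of gene body (vertical axis) on each chromosome (horizontal axis) for OSU-ERb-12-only, combination-only and enzalutamide-only regions inside gene bodies. Points are densities and bars exact 95% Clopper-Pearson intervals over regions, scaled to Mb. OSU-ERb-12 points reach 10.8 per Mb on chromosome 3 and 0.468 on chromosome X, where enzalutamide points stand at 8.74 and 3.79.

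The chromosome plot shows OSU-ERb-12 points beside or above the enzalutamide points on chromosomes 1, 3, 7, 8 and 12 and below them on all the other chromosomes. On chromosome 3 the OSU-ERb-12 interval lies above that of enzalutamide. Distances between neighbouring regions of a set were also counted. No share for random placement was worked out, and the sets differ in size, with 7456 OSU-ERb-12-only, 2138 combination-only and 9000 enzalutamide-only regions. Another OSU-ERb-12-only gene body region lay within 5 kb of 734 regions (9.84%, 9.18 to 10.5%), against 4.30% (3.48 to 5.25%) for the combination and 13.8% (13.1 to 14.5%) for enzalutamide, with a median gap between neighbours of 46350, 178750 and 44850 bp.

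The genes with most OSU-ERb-12-only regions were long. Of the 32 genes with 10 or more regions, 29 lay on chromosomes 1, 3, 7, 8 and 12. RABGAP1L, a Rab GTPase-activating protein gene of 835.8 kb at chr1:174159520-174995308, held 19 OSU-ERb-12-only, 3 combination-only and 5 enzalutamide-only regions. RPS6KC1, a gene of the S6 kinase family, held 17 OSU-ERb-12-only, 5 combination-only and 9 enzalutamide-only regions. IQCJ-SCHIP1 also held 17, with 0 combination-only and 14 enzalutamide-only regions, and shares part of them with SCHIP1, which it overlaps. Those 3 genes held more OSU-ERb-12-only regions than regions of either other kind.

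KALRN, a guanine nucleotide exchange factor, held 14 OSU-ERb-12-only, 5 combination-only and 9 enzalutamide-only regions. SRGAP3, a GTPase-activating protein downstream of Robo receptors, held 11, 1 and 2 in the same order, in 382.4 kb. PAPPA2, a protease gene whose product cleaves insulin-like growth factor binding proteins, held 13, 0 and 8, also in 382.4 kb. FHIT, the fragile-site gene of a diadenosine triphosphate hydrolase, held 15, 0 and 6, and AUTS2, a gene of neuronal development, held 16, 3 and 6.

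CSMD1 held 16 OSU-ERb-12-only, 4 combination-only and 11 enzalutamide-only regions in 2059.6 kb, and CNTNAP2, a neurexin family gene, held 16, 1 and 13 in 2304.2 kb. ERC2, a gene of the presynaptic active zone, held 14, 3 and 8, and CACNA1C, which encodes an L-type calcium channel pore, held 12, 2 and 6. CLSTN2, a calsyntenin gene, held 12, 3 and 4, SDK1, an adhesion gene, held 12, 4 and 5, and TMEM132B held 12, 1 and 4. All 15 genes named by number had more OSU-ERb-12-only than enzalutamide-only regions; they were ranked on the OSU-ERb-12 count, so this follows in part from the choice.

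Ranked by regions per 100 kb of body, among genes of at least 20 kb with at least 4 regions, shorter genes led. KIAA0040 (36.0 kb, chromosome 1) held 4 regions or 11.1 per 100 kb, MXRA7 (38.4 kb, chromosome 17) 4 or 10.4, ROPN1L, a gene of the sperm flagellum (40.9 kb, chromosome 5), 4 or 9.77, and DKK3, a secreted Dickkopf family gene (46.7 kb, chromosome 11), 4 or 8.56. POGZ, a chromatin-associated zinc finger gene (56.8 kb), held 4 or 7.05. None of these 5 genes held a combination-only or enzalutamide-only region in its body away from gene ends. In the whole lists, 1 enzalutamide region overlapped MXRA7 and 1 combination region overlapped ROPN1L. The rule on gene ends or on sharing left them out. Over all genes, 8.75% held a combination-only and 25.7% an enzalutamide-only region, so a gene without either is common. In the length class of 35.3 to 52.3 kb, which holds all of them but POGZ, the shares were 9.29% and 27.4%. The genes were also ranked on the OSU-ERb-12 count. RHOU, which encodes an atypical small GTPase, held 6 OSU-ERb-12-only, 0 combination-only and 2 enzalutamide-only regions. UBAP2L, PGBD2 and PXYLP1 held 4 OSU-ERb-12-only regions each, 0 combination-only regions, and 1, 1 and 2 enzalutamide-only regions.

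LMTK2, which encodes a membrane-anchored kinase of endosomes, stood out among them with 9 regions in 102.8 kb (8.76 per 100 kb), against 1 combination-only and 3 enzalutamide-only regions. On hg38 the gene spans chr7:98106862-98209638 on the plus strand. Its 9 regions began at positions 98112351, 98133701, 98152401, 98179751, 98184001, 98193851, 98195101, 98197101 and 98204851, and were 200 or 250 bp wide. They lay 5.59 to 98.1 kb from the gene start, and 5 of them stood between 77.3 and 98.1 kb, in the last part of the gene. The nearest region of another list was 8200 to 40500 bp away.

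**Figure D4:**
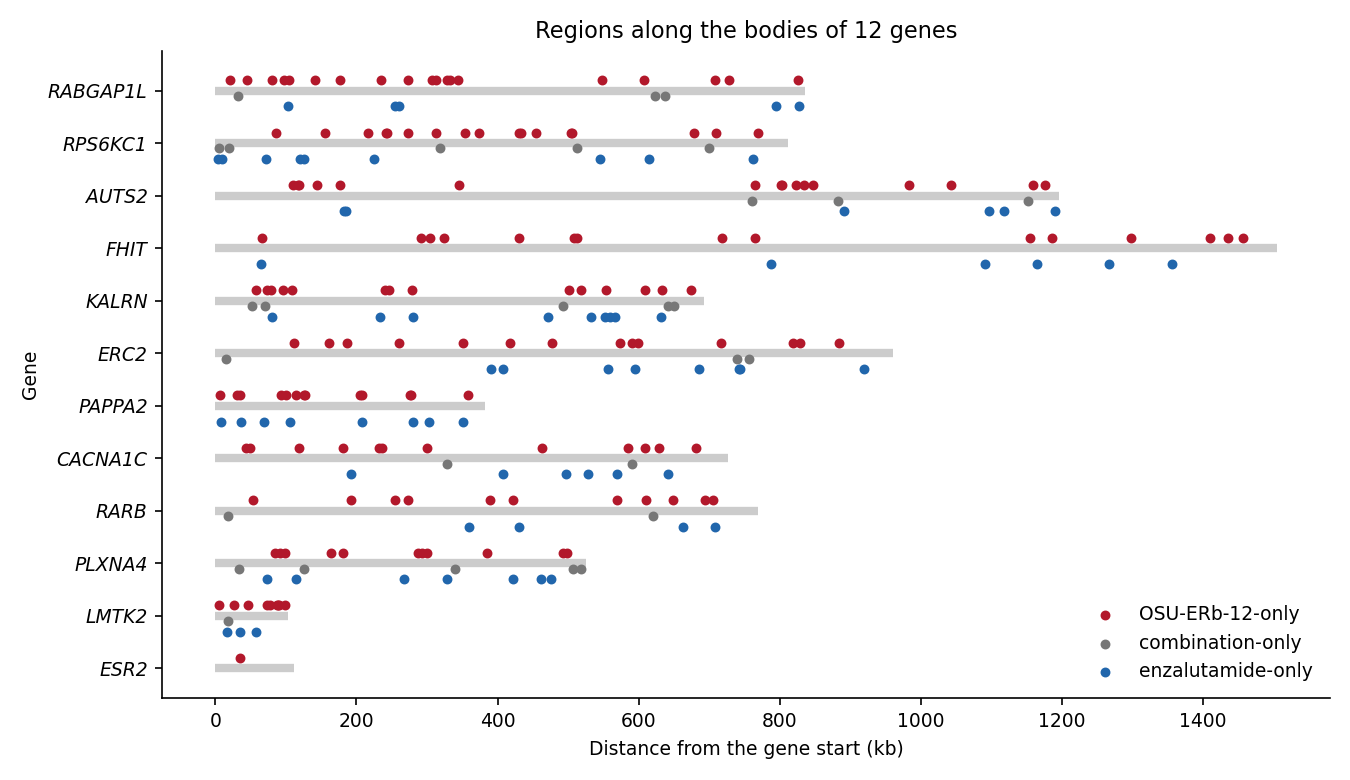
Positions of OSU-ERb-12-only (above the bar), combination-only and enzalutamide-only regions (below the bar) along the bodies of 12 genes, as distance from the gene start in kb (horizontal axis); each grey bar is a gene body and each point a region. RABGAP1L shows 19 OSU-ERb-12-only points, LMTK2 shows 9 in 102.8 kb, and ESR2 shows 1 point and no combination-only or enzalutamide-only point. Regions at gene ends or shared between lists are not drawn.

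The map of gene bodies shows where the points of the lists stand in each gene. In LMTK2 the points of the other lists lie within the first 57.4 kb of the gene. In RARB, for example, 11 OSU-ERb-12-only regions lay from 53.5 to 705 kb after the start, with 2 combination-only and 4 enzalutamide-only regions between or beside them. AUTS2 had none of its 16 regions in the first 100 kb.

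The genes of the oestrogen receptors held few of the regions. ESR2, which encodes oestrogen receptor beta, held 1 OSU-ERb-12-only region, 0 combination-only and 0 enzalutamide-only regions. That region lay at chr14:64304101-64304300, 34.4 kb from the gene start, and the nearest region of another list was 33600 bp away. The whole enzalutamide list held 1 region that overlapped ESR2, which the rule on gene ends or on sharing left out. ESR1, the gene of oestrogen receptor alpha, held 0 OSU-ERb-12-only, 0 combination-only and 5 enzalutamide-only regions. GREB1, an oestrogen and androgen target, held 1 at chr2:11520701-11520900, 0 and 3. FOXA1, HOXB13, FKBP5 and TMPRSS2, genes of prostate identity and androgen response, held 0 of each kind inside their bodies. The whole enzalutamide list held 1 region each in HOXB13 and FKBP5, which the rule on gene ends or on sharing left out. With 0 regions in a short body such as that of FOXA1 (5.7 kb), nothing can be read from the absence.

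Among 48 nuclear receptor genes 23 held an OSU-ERb-12-only region (47.9%, 33.3 to 62.8%), 11 a combination-only and 20 an enzalutamide-only region, against 21.4%, 8.75% and 25.7% of all genes. Their median length was 50.9 kb. Counted per Mb of body, they held 9.36 OSU-ERb-12-only, 2.46 combination-only and 10.5 enzalutamide-only regions, against 6.10, 1.75 and 7.37 in all gene bodies. RARB, the retinoic acid receptor beta gene, led with 11 OSU-ERb-12-only, 2 combination-only and 4 enzalutamide-only regions. THRB, a thyroid hormone receptor gene, held 8, 0 and 7, ESRRG, the gene of an orphan receptor related to oestrogen receptors, 7, 0 and 15, and NR5A2, a gene of an orphan receptor of steroid metabolism, 4, 0 and 4. RARB and THRB both lie on chromosome 3, the densest chromosome in the OSU-ERb-12-only set.

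Coregulators of these receptors held regions in 14 of 24 genes (58.3%, 36.6 to 77.9%), against 3 for the combination and 12 for enzalutamide, at 6.74 per Mb. Over all genes the shares were 21.4%, 8.75% and 25.7%, and the OSU-ERb-12-only density 6.10 per Mb. HDAC4, a class IIa histone deacetylase gene, held 6 OSU-ERb-12-only, 3 combination-only and 7 enzalutamide-only regions. TRRAP, the scaffold of histone acetyltransferase complexes, held 4, 1 and 0, HDAC9 held 4, 1 and 3, and PPARGC1B held 3, 0 and 6. The 3 PPARGC1B regions lay 30.04, 41.44 and 46.62 kb from the start, and the middle one is the region whose window is printed above.

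Of 39 androgen response genes 14 held an OSU-ERb-12-only region (35.9%, 21.2 to 52.8%), 2 a combination-only and 21 an enzalutamide-only region (53.8%, 37.2 to 69.9%), with 4.77, 0.502 and 10.8 regions per Mb. The background over all genes was 21.4%, 8.75% and 25.7% of genes, and 6.10, 1.75 and 7.37 regions per Mb of body. NDRG1, HOMER2, ZMIZ1 and MAF held 2 OSU-ERb-12-only regions each. Of 24 oestrogen response genes 10 held an OSU-ERb-12-only region (41.7%, 22.1 to 63.4%), 3 a combination-only and 8 an enzalutamide-only region, with 8.83, 2.41 and 9.64 per Mb. TPD52L1 held 2 OSU-ERb-12-only regions, and CCND1 (cyclin D1), STC2 (stanniocalcin 2) and SIAH2 held 1 each. The intervals of the OSU-ERb-12 and enzalutamide shares overlap in both groups.

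Of 24 prostate lineage factor genes 8 held an OSU-ERb-12-only region (33.3%, 15.6 to 55.3%), 6 a combination-only and 12 an enzalutamide-only region. Over all genes the shares were 21.4%, 8.75% and 25.7%, and the first lies within that interval. Per Mb the group held 8.49, 2.68 and 11.6 regions, against 6.10, 1.75 and 7.37 in all gene bodies. MEIS2, a homeodomain gene, TCF7L2, the Wnt effector gene, and RUNX1 held 2 OSU-ERb-12-only regions each. Wnt pathway genes held an OSU-ERb-12-only region in 18 of 58 (31.0%), a combination-only one in 6 and an enzalutamide-only one in 19, at 9.24, 2.09 and 10.7 per Mb. The R-spondin receptor gene LGR6 held 4 OSU-ERb-12-only regions, and the R-spondin genes RSPO2 and RSPO4 held 3 and 2.

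Of 49 receptor tyrosine kinase genes 22 held an OSU-ERb-12-only region (44.9%), 14 a combination-only and 24 an enzalutamide-only region. Their median length was 97.3 kb and their OSU-ERb-12-only density 6.50 per Mb, against 6.10 per Mb in all gene bodies. Over all genes the shares were 21.4%, 8.75% and 25.7%. EPHB1, an ephrin receptor gene, held 8, 5 and 3, ALK held 7, 2 and 4, DDR2 held 4, 0 and 3, and EGFR held 4, 0 and 8. Of 20 receptor protein tyrosine phosphatase genes, with a median length of 189.6 kb, 16 held an OSU-ERb-12-only region (80.0%, 56.3 to 94.3%), 6 a combination-only and 15 an enzalutamide-only region. PTPRG held 11, 0 and 4, PTPRT 7, 4 and 3, PTPRB 4, 0 and 4, and PTPRS 3, 1 and 1. At 5.38 per Mb this group was near the 5.26 per Mb of the longest 10% of genes.

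**Figure D5:**
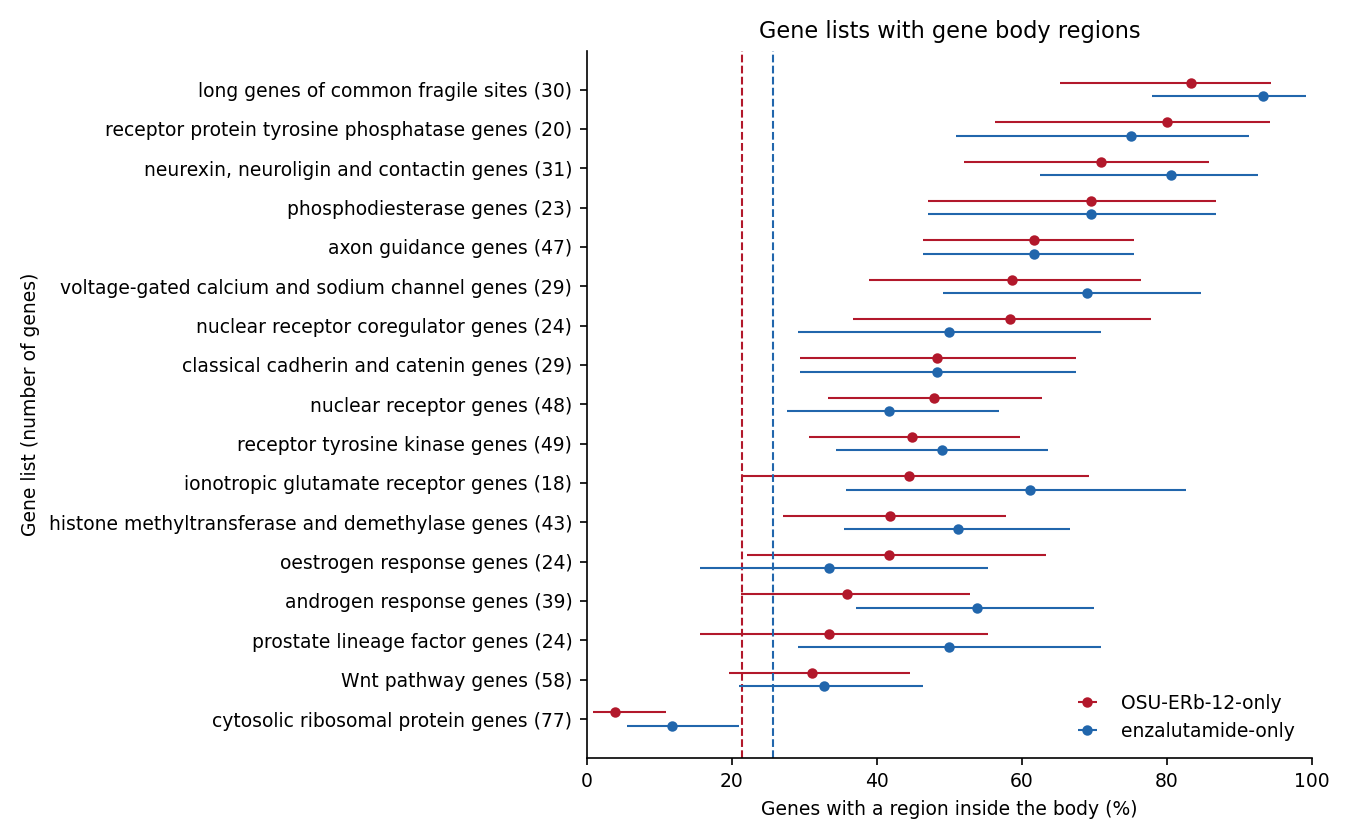
Percentage of genes with a region inside the body (horizontal axis) in 17 gene groups (vertical axis, number of genes in brackets) for OSU-ERb-12-only and enzalutamide-only regions; points are shares, bars exact 95% intervals over genes, and dashed lines the shares of all protein-coding genes, 21.4% and 25.7%. The groups run from 83.3% for long genes of fragile sites to 3.90% for ribosomal protein genes, and the intervals of the 2 kinds of region overlap in each group.

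In the plot of gene groups the longest genes stand at the top and the shortest at the bottom. At the top, 25 of 30 long genes of common fragile sites (83.3%; median length 1375 kb) held an OSU-ERb-12-only region, at only 3.51 per Mb, and 12 held a combination-only and 28 an enzalutamide-only region. At the bottom, 3 of 77 cytosolic ribosomal protein genes (3.90%, 0.811 to 10.97%; median length 5.01 kb) held one, and 0 and 9 held a region of the other kinds. RPS20, RPL37 and RPL28 held 1 OSU-ERb-12-only region each. No test was run on any group, and the groups were drawn up with earlier results of these data known.

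Voltage-gated calcium and sodium channel genes held 10.2 OSU-ERb-12-only regions per Mb of body, against 5.26 per Mb in the longest 10% of genes. Such a region lay in 17 of 29 of these genes (58.6%, 38.9 to 76.5%), a combination-only region in 11 and an enzalutamide-only region in 20. The densities of the other kinds were 3.36 and 7.03 per Mb, and the median length of the genes was 152.9 kb. Over all genes the shares with a region were 21.4%, 8.75% and 25.7% in the same order of lists. CACNA1E, an R-type calcium channel gene, held 11, 4 and 3, CACNA2D3, an auxiliary subunit gene, 11, 3 and 4, CACNA1C 12, 2 and 6, and SCN11A, a sodium channel gene, 6, 1 and 2. These 4 genes lie on chromosomes 1, 3 and 12, which have OSU-ERb-12-only densities above that of all gene bodies. Ionotropic glutamate receptor genes, which encode channels too, held OSU-ERb-12-only regions in 8 of 18 (44.4%), at a lower density of 4.38 per Mb, with GRID1 at 11, 1 and 2, and GRIN2B at 5, 1 and 0. In GRIN2B the regions nearest the start lay 8.61, 28.4 and 29.1 kb into the gene.

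Adhesion and guidance genes gave similar counts for the OSU-ERb-12-only and enzalutamide-only regions. Of 29 cadherin and catenin genes 14 held an OSU-ERb-12-only region (48.3%), 4 a combination-only and 14 an enzalutamide-only region, at 3.11, 0.533 and 3.64 per Mb. Over all genes the shares were 21.4%, 8.75% and 25.7%, and the densities 6.10, 1.75 and 7.37 per Mb. CDH4 held 6, 0 and 1, CDH13 held 5, 0 and 1, CTNNA2 held 4, 1 and 3, and CDH2 held 3, 0 and 3. Neurexin, neuroligin and contactin genes held an OSU-ERb-12-only region in 22 of 31 (71.0%), at 4.46 per Mb. CNTN4 held 8, 0 and 9, DSCAML1 held 6, 5 and 3, and NTM held 6, 3 and 2. Axon guidance genes held an OSU-ERb-12-only region in 29 of 47 (61.7%), at 6.03 per Mb, and the same number held an enzalutamide-only region. PLXNA4, a semaphorin coreceptor gene, held 11, 5 and 7, the Slit receptor genes ROBO2 and ROBO1 8, 1 and 7 and 5, 0 and 9, and UNC5B, a netrin receptor gene, 3, 1 and 1.

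Enzymes of second messengers and of histone methylation closed the set. Of 23 phosphodiesterase genes 16 held an OSU-ERb-12-only region (69.6%, 47.1 to 86.8%), 1 a combination-only (4.35%, 0.110 to 21.9%) and 16 an enzalutamide-only region. PDE4D, a gene of cyclic AMP breakdown, held 10, 0 and 6, PDE1C 9, 0 and 5, and PDE9A and PDE8B 3 OSU-ERb-12-only regions each. Per Mb the group held 6.13, 0.146 and 5.11 regions, against 6.10, 1.75 and 7.37 in all gene bodies. Of 43 histone methyltransferase and demethylase genes 18 held an OSU-ERb-12-only region (41.9%), 6 a combination-only and 22 an enzalutamide-only region. Per Mb these genes held 7.50, 1.58 and 8.69 regions. For both groups of this paragraph, the shares over all genes were 21.4%, 8.75% and 25.7%. SMYD3, a lysine methyltransferase gene, held 9, 0 and 9, EHMT1 held 5, 1 and 3, KDM4C held 4, 0 and 3, and PRDM16 held 3, 3 and 1.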

How the data were processed

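ATAC-seq was read in 12 samples of 22Rv1 cells; per the labels' protocols the nucleosome-free reads were separated with ATACSeqQC, and per the submitters' processing notes FastQC, Trimmomatic and hg38 were used. How peaks were called and at which threshold, how treatments were tested, whether replicates were pooled and whether reads were shifted for the transposase is not given in the sources used here. Submitting 1 list of regions per treatment, the authors deposited a score that is 0 in every row; it was not used, so regions could not be ranked, and depth is unknown.

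Positions were converted to 1-based and set against 20037 RefSeq protein-coding genes, of which 15842 had a strand in the promoter table. A body was the gene without 1 kb at any gene end. Per Mb values use the merged length of these bodies (1221 Mb in all), except for the densities by distance. Those count region and gene pairs over lengths summed gene by gene for the genes with a strand. They are therefore not on the same base as the other densities. Shares have exact Clopper-Pearson 95% intervals, and the intervals of densities are those of the region's share of its set, scaled to counts per Mb. They cover the counting of regions only. Python 3.11.15, pandas 2.3.3, scipy 1.17.1 and matplotlib 3.10.9 were used. On simulated lists the selection found the planted regions of every class. The members and gene groups were chosen with earlier results of these data known; the GC box and the chromosome group were added after values were seen. Named genes are the 15 with most members, the 10 with most per 100 kb (at least 4 members and 20 kb), up to 4 with most members in each of 17 groups, and 8 genes linked to hormone signalling and prostate identity; a few of the genes so taken are not reported here. The regions with printed windows were picked by overlap and known role. Shares of exons and introns and motifs of whole regions were planned and not run, because no exon annotation or genome was used here.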

Additional observations from a re-analysis of the deposited data

How the results depend on the processing

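The number of regions, 7456, was within 1.5 times under 8 of 10 alternatives; it was 2422 with regions wider than 200 bp and 3679 without chromosomes 1, 3, 7, 8 and 12. This last alternative, and leaving out 1 kb around every start of the promoter table, were chosen after seeing the data. The percentage of OSU-ERb-12-only regions inside bodies (47.1%) was 39.9% with 5 kb windows at gene ends, 51.1% with none and 45.8% with all starts left out. The percentage of genes with a region (21.4%) was 17.2% with 5 kb windows, 23.9% with none, 22.3% on autosomes, 9.51% with regions wider than 200 bp and 17.4% without the 5 chromosomes. The longest 10% of genes held 54.7% with 5 kb windows, 45.3% with none and 44.5% without the 5 chromosomes, against 48.2%. The 5 chromosomes held 52.1% with 5 kb windows, 49.4% with none and 52.1% with regions wider than 200 bp, against 50.7%. Inner starts were touched by 1.72% of regions with no window and 1.14% without the 5 chromosomes, against 0.724%; the enzalutamide-only share was then 11.2% and 4.34%, against 3.57%. The shares of 200 bp regions and of regions nearer to the gene start stayed within their intervals under every alternative run on them; the enzalutamide-only share nearer to the start was 51.7% with 5 kb windows, 63.9% with none and 51.2% with all starts left out, against 53.8%. With regions wider than 200 bp, 78 of 93 counts in named genes moved by more than 1.5 times. The causes were not tested beyond what each alternative removes. No paired analysis was possible because each treatment has 1 list and no values per sample; for the same reason no replicate was left out. Intron shares were not run. The lists give no depth, no defined direction and no strength, so absence from a list cannot be read as absence of a change. Regions of 1 list share samples, and all lists are taken to share the vehicle samples.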
